A study of Mus musculus with 15 samples.

Results

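The genes described here are 40 genes of the type I interferon response, the program that cells switch on when interferon alpha or beta reaches its receptor, together with the sensors of foreign nucleic acid that set the program off. They were picked by symbol from a table of gene levels in the auditory nerve of the mouse, and 40 of 40 were found among its 18536 genes. Of the 16723 genes that passed a filter on low values (a normalized count of 10 or more in no fewer than 3 libraries), 40 were these genes. The nerve was taken by microdissection from mice on postnatal days (P) 3, 7, 14 and 21 and from adults, each age had 3 libraries, and each library held both cochleae of 1 mouse. The labels name no genotype, treatment or infection for any age, the adult libraries are titled as controls, and strain, sex, litter and the age of the adults were not stated. No cell type was sorted, so in these bulk samples fewer cells of a type and less RNA per cell cannot be told apart.

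Interferons alpha and beta bind a receptor made of Ifnar1 and Ifnar2, and the kinases Jak1 and Tyk2 on it phosphorylate Stat2, among others. Stat2 and Irf9 then act in a complex that binds the interferon-stimulated response element in front of target genes, among them enzymes and RNA-binding proteins that block viruses, and feedback regulators that end the response. Interferon gamma uses another receptor, and several of the 40 genes, such as Cxcl9, Irf1 and Irf8, answer to it as well. In nervous tissue, microglia and macrophages are well known for strong responses of this kind, but nearly every cell can mount one.

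Levels are normalized read counts, that is the reads of a gene after scaling each library by its size factor. Between 35250155 and 42258736 reads per library were recovered from them, and 3 reads, the least taken as detection, came to 2.53 to 3.65 normalized counts. Such limits cover counting error only. Values are listed in the order of the replicate numbers, which are 1 to 3 at each age except P7, where they are 4 to 6. A fold change is the difference of mean log2(normalized count + 1) with its standard error (SE), and a gene rose or fell where limma's adjusted p over all 16723 genes was under 0.05. The 7 neuronal and 7 Schwann cell markers checked were above the detection limit at every age, and 6 of 6 osteoclast markers passed the filter as well, so the dissections also held transcripts of bone cells. Eif2s3y, a gene of the Y chromosome, was near or at 0 in adult replicate 3, P14 replicate 1 and P21 replicates 1 and 2. Xist, a gene of the X chromosome, ran from 24200 to 44420 normalized counts in these 4 libraries and from 4.71 to 1107 elsewhere. No P3 or P7 library is among these 4. Some results without these 4 libraries, a fit that leaves P21 with 1 library, are given below.

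Between P3 and P7 the interferon response genes fell nearly as a group. Of the 40 genes, 37 fell, 0 rose and 3 were not called, where 12.8% of all genes tested fell and 15.4% rose. The fall was at least 2-fold in 32 genes, and the median change was -2.15 on the log2 scale, beside -0.02 over all genes tested. In 38 of the 40, every P7 library was below every P3 library, which was so for 27.4% of all genes tested. In 23 the lowest P3 library was at least 2-fold above the highest P7 library. The median gene stood at P7 at 21.5% of its P3 mean and in adults at 52.1%. The 3 genes not called were Ifih1, Cmpk2 and Ifi27. The falls of Irf8, Mx2 and Ifi35 were lost when 1 library was left out. This was so for Irf8 without P3 replicate 2 (adjusted p = 0.0551), for Mx2 without P3 replicate 3 (0.0794) or P7 replicate 6 (0.0714), and for Ifi35 without P3 replicate 2 (0.0617), P3 replicate 3 (0.076) or P7 replicate 5 (0.0534).

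**Figure D1:**
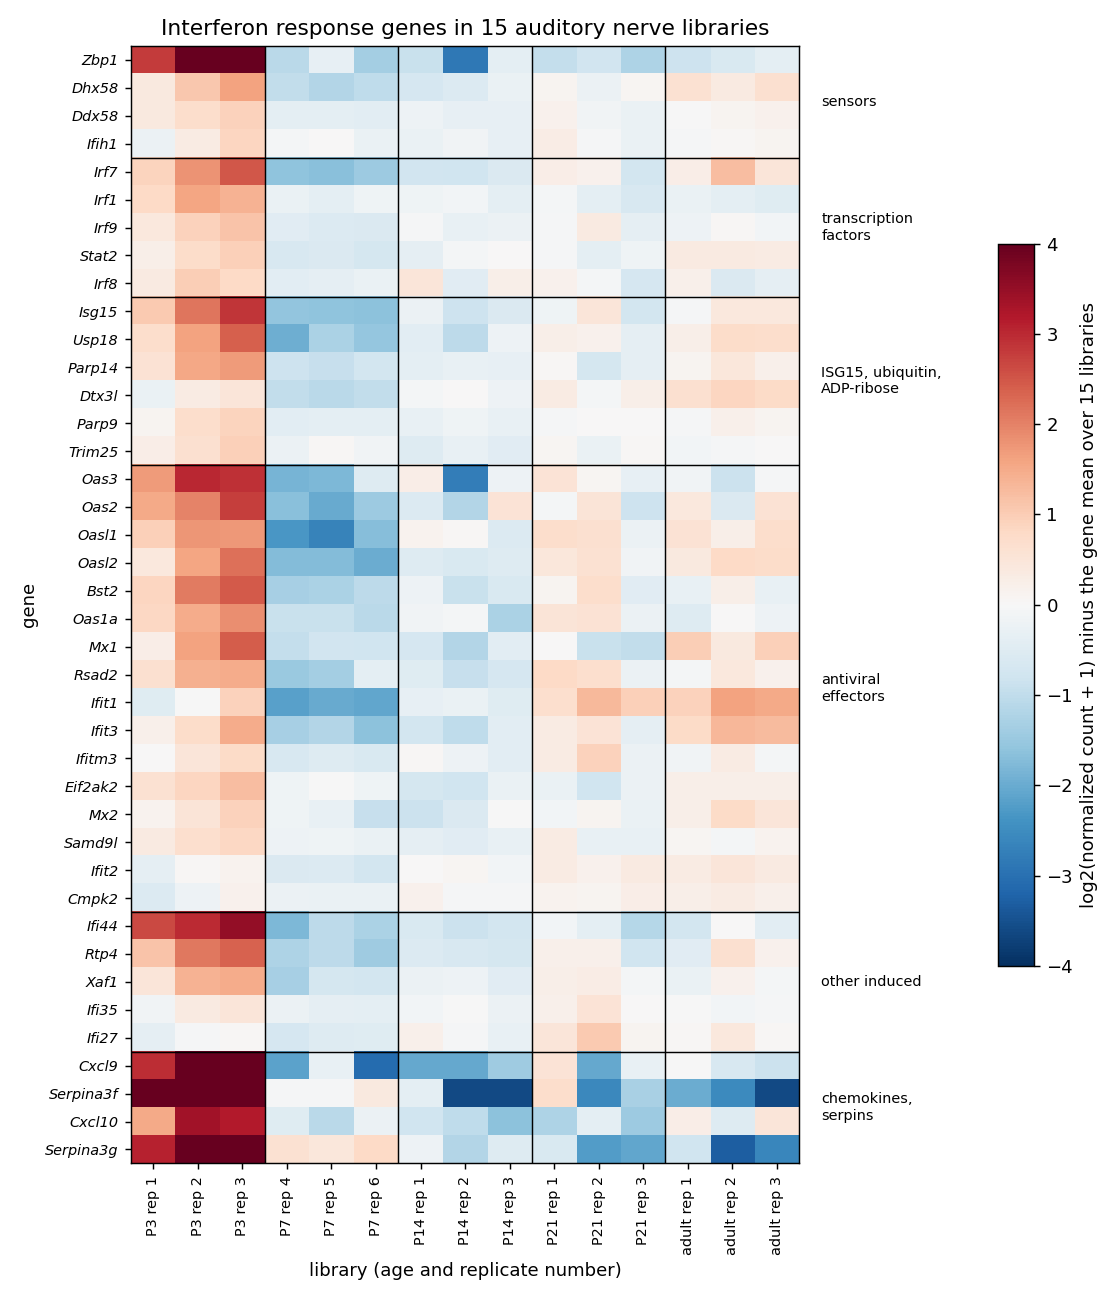
Levels of the 40 genes (rows, grouped by role and ordered by the change from P3 to P7) in the 15 libraries (columns), as log2(normalized count + 1) minus the mean of the gene over all libraries. The color scale ends at 4 and -4, and values beyond it take the end color. The 3 P3 columns are red in nearly every row, P3 replicate 1 least so, and the 3 P7 columns are mostly blue, while in adults Ifit1, Ifit3 and Dtx3l are red.

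The letters around the starts of these genes were read next, because a shared element is the textbook link between them. RefSeq start sites of build GRCm38.p6 gave a window of 250 bases before to 50 bases after the start for 30 of the 40 genes, and 27 of the 30 start at the same base as in the table. The interferon-stimulated response element was searched on both strands as GAAA, any 2 bases and GAAA again, and the gamma-activated site as TTC, any 3 bases and GAA, which reads the same on both strands. The first was found in 13 of the 30 genes (43.3%), beside 3.99% of all 27025 genes with a window of this length, and the second in 10 of the 30 (33.3%), beside 9.55%, where a gene with several windows counts once. In Ddx58, Ifih1, Eif2ak2 and Ifitm3 the only matches to the first motif lie after the start and not in front of it. The same holds for the second motif in Ifi35 and Ifitm3. In 2 windows, those of Bst2 and Ifitm3, matches to the 2 motifs overlap. A match is a run of letters and not a measured binding site. The 8 stretches below belong to the genes with the largest fall among those with the first motif, which is in capitals, each 160 bases long, 5′ to 3′ on the strand of the gene and ending at the base before the start, except that of Cxcl10, which runs from base 250 to base 91 before it.
Oas3: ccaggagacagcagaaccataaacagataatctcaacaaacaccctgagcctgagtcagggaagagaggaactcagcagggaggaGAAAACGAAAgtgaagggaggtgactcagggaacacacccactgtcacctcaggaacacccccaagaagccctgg
Isg15: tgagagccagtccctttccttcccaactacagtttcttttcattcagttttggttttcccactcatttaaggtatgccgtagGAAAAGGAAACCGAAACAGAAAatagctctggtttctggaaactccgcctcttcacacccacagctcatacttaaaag
Cxcl10: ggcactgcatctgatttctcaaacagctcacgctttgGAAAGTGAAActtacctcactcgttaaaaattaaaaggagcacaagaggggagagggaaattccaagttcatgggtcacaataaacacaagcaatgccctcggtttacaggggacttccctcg
Bst2: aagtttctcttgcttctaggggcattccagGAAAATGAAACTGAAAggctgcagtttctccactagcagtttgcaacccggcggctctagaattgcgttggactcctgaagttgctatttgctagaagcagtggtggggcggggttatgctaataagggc
Oas1a: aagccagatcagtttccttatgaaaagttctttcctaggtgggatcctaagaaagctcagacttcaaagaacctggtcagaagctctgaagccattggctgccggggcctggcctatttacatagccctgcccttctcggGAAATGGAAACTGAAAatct
Rsad2: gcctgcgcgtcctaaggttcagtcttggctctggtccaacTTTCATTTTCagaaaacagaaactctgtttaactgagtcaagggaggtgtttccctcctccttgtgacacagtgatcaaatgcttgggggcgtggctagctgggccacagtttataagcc
Ifit1: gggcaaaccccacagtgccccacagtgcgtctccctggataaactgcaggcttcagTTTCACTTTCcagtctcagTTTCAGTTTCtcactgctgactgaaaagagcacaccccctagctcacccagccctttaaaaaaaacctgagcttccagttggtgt
Ifit3: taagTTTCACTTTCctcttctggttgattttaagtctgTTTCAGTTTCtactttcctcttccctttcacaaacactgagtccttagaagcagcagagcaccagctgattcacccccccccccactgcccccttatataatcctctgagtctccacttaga
They lie at chr5:120777660-120777819 (Oas3, minus strand), chr4:156200819-156200978 (Isg15, minus), chr5:92348980-92349139 (Cxcl10, minus), chr8:71537473-71537632 (Bst2, minus), chr5:120907526-120907685 (Oas1a, minus), chr12:26456453-26456612 (Rsad2, minus), chr19:34640729-34640888 (Ifit1, plus) and chr19:34583369-34583528 (Ifit3, plus). Isg15 has a run of 3 overlapping matches that begins 78 bases before its start, and that of Oas1a begins only 20 bases before it. In Rsad2, Ifit1 and Ifit3 the motif lies on the other strand and reads TTTC, any 2 bases and TTTC. For contrast, the same stretches of Cxcl9 and Serpina3f, which fell most of all 40 genes from P3 to P7, hold no match to the first motif, and capitals mark the gamma-activated site in Serpina3f.
Cxcl9: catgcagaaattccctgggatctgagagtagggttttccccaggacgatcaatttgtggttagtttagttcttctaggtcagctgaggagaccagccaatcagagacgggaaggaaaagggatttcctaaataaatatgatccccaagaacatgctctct
Serpina3f: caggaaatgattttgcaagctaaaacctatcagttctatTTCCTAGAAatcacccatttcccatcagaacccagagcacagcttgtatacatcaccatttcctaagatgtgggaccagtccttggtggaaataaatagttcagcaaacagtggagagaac
These lie at chr5:92328080-92328239 (minus strand) and chr12:104214384-104214543 (plus strand). Of the 13 genes with a match to the first motif 12 fell from P3 to P7, and of the 17 without one 16 did. From P7 to adults 8 of the 13 and 9 of the 17 rose.

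The fitted changes of the nucleic acid sensors from P3 to P7 ran from -4.85 to -0.42 on the log2 scale. Differences between them were not tested. Ddx58 (RIG-I) and Ifih1 (MDA5) recognize viral RNA in the cytoplasm, Dhx58 (LGP2) tunes them, and Zbp1 binds left-handed nucleic acid and can trigger cell death. Of these 4 genes, 3 fell from P3 to P7 and Ifih1 was not called. Zbp1 had 253, 719 and 929 normalized counts at P3, 16.3, 28.1 and 13.1 at P7, 18.6, 4.08 and 26.8 at P14, 17.8, 20.6 and 14.7 at P21 and 19.8, 23 and 26.7 in adults. Each P3 library was above every later one, and the later ages overlapped one another. It fell at P7 (log2 -4.85 ± 0.58, adjusted p = 9.93e-05) and was still 3.65% of its P3 mean in adults. Dhx58 had 179.5, 292 and 428 normalized counts at P3, 69.6, 61 and 68.6 at P7, 85.8, 93.9 and 114 at P14, 149, 117 and 146 at P21 and 213, 179 and 215 in adults. It was lowest at P7 (log2 -2.07 ± 0.25, adjusted p = 9.93e-05) and rose from there to adults (log2 1.59 ± 0.25, adjusted p = 7.08e-05), where 2 of 3 libraries lay within the P3 range. Ddx58 had 1471, 1854 and 2131 normalized counts at P3, 869, 854 and 844 at P7, 973, 907 and 906 at P14, 1261, 1031 and 932 at P21 and 1118, 1211 and 1271 in adults, with the P3 libraries above all others. At P7 it fell (log2 -1.07 ± 0.13, adjusted p = 9.06e-05) and rose to adults by 0.49 ± 0.13 (adjusted p = 0.00398). Ifih1 had 538, 786 and 1135 normalized counts at P3, 597, 638 and 527 at P7, 522, 575 and 507 at P14, 767, 608 and 526 at P21 and 613, 649 and 683 in adults. Its lowest P3 library, replicate 1, lay inside the P7 range, and the P7 difference was -0.42 ± 0.21 (adjusted p = 0.153). Without P3 replicate 1 Ifih1 fell (log2 -0.69, adjusted p = 0.0124). It was the only 1 of the 40 genes not called in the joint test of the 5 ages, which called 85.4% of all genes tested.

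All 5 transcription factors fell from P3 to P7. Stat2 and Irf9 belong to the factor that binds the response element, Irf7 is the factor that amplifies interferon alpha production, Irf1 answers to both kinds of interferon, and Irf8 is a factor of myeloid cells. Irf7 had 391, 731 and 1166 normalized counts at P3, 67.8, 64.9 and 75.1 at P7, 124, 121 and 138 at P14, 253, 239 and 125 at P21 and 254, 490.0 and 295 in adults. Its P7 libraries were close together and below all others, and it fell at P7 (log2 -3.31 ± 0.36, adjusted p = 5.04e-05). Irf7 rose from P7 to adults (log2 2.25 ± 0.36, adjusted p = 8.94e-05). Irf1 had 1738, 2963 and 2610.3 normalized counts at P3, 823, 763 and 875 at P7, 879.8, 917 and 757 at P14, 953, 758 and 641 at P21 and 826, 761 and 716 in adults. It fell at P7 (log2 -1.54 ± 0.18, adjusted p = 7.68e-05) and the 4 later ages overlapped, with an adult mean 31.5% of that at P3 (P7 to adult: log2 -0.10 ± 0.18, adjusted p = 0.65). Stat2 had 1477, 2080.2 and 2443 normalized counts at P3, 813, 849 and 778 at P7, 985, 1189.7 and 1267 at P14, 1225, 949.9 and 1123 at P21 and 1605, 1605 and 1564 in adults. By P7 it had fallen (log2 -1.27 ± 0.15, adjusted p = 0.000109), and the 3 adult libraries, nearly equal, lay above all P7, P14 and P21 libraries and inside the P3 range (adult against P7: log2 0.97 ± 0.15, adjusted p = 8.57e-05). Irf9 fell from 1994 ± 485 to 760.1 ± 30.7 normalized counts (SD, n = 3; log2 -1.36 ± 0.18, adjusted p = 0.000225) and Irf8 from 452 ± 96.7 to 214 ± 10.5 (log2 -1.06 ± 0.28, adjusted p = 0.0128). Irf9 rose from P7 to adults (log2 0.45 ± 0.18, adjusted p = 0.044), a call that was lost under 10 of its alternatives, with an adjusted p of up to 0.133 (without adult replicate 2).

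The ubiquitin-like and ADP-ribosylation genes fell in 6 of 6 cases. Isg15 is the ubiquitin-like protein that interferon couples to others, Usp18 takes it off again and also restrains the receptor, Trim25 is a ubiquitin ligase that acts on RIG-I, and Dtx3l and Parp9 form a ligase complex. Isg15 had 298, 645 and 1058 normalized counts at P3, 47.9, 46.5 and 46 at P7, 123, 81.6 and 95.5 at P14, 129, 204 and 86.1 at P21 and 140.5, 193 and 193 in adults. The P7 libraries were within 2 counts of one another and far below the P3 libraries, which themselves spanned from 298 to 1058. Isg15, whose promoter is shown above, fell at P7 (log2 -3.62 ± 0.39, adjusted p = 4.36e-05) and rose to adults (log2 1.87 ± 0.39, adjusted p = 0.000775), where it was 26.3% of its P3 mean. Parp14, which attaches single ADP-ribose units, had 1038, 2038 and 2299.6 normalized counts at P3, 393, 366 and 419.8 at P7, 530.4, 572 and 560.2 at P14, 719, 427 and 543 at P21 and 753, 971 and 811 in adults, with each P7 library below all libraries of other ages. It fell at P7 (log2 -2.11 ± 0.25, adjusted p = 8.49e-05) and rose to adults (log2 1.10 ± 0.25, adjusted p = 0.00141). Dtx3l had 739, 1113 and 1221 normalized counts at P3, 448, 413 and 443 at P7, 843, 893 and 769 at P14, 1109, 829 and 1036 at P21 and 1362, 1612 and 1513 in adults. The gene fell at P7 (log2 -1.20 ± 0.16, adjusted p = 0.000213), and its adult libraries were above all 12 others. Usp18 fell from 372 ± 208 to 37.03 ± 8.76 (log2 -3.16 ± 0.37, adjusted p = 8.74e-05), Parp9 from 1641 ± 421 to 811.6 ± 5.63 (log2 -0.98 ± 0.15, adjusted p = 0.000424) and Trim25 from 1324 ± 306 to 789.7 ± 84.1 (log2 -0.72 ± 0.15, adjusted p = 0.00339; SD, n = 3). Parp9 and Dtx3l overlap by 558 bases on opposite strands, so reads from there cannot be told apart without strand, the use of which was not stated.

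Among the antiviral effectors 15 of 16 fell from P3 to P7, and Cmpk2 was not called. The Oas genes make the oligoadenylates that activate RNase L. Oasl2, an Oas-like protein, had 728, 1639.9 and 2543 normalized counts at P3, 164, 163 and 138 at P7, 381, 355 and 379 at P14, 751, 826 and 500.0 at P21 and 722, 958 and 915 in adults. Its P7 libraries were the lowest of all 15, the P14 libraries stood above them, and those of P21 and adults lay around the lowest P3 library and below the other 2. It fell at P7 (log2 -3.22 ± 0.33, adjusted p = 3.16e-05) and rose to adults (log2 2.47 ± 0.33, adjusted p = 1.85e-05). Oasl1, known to hold back translation of Irf7, had 35.4, 61.7 and 60.3 normalized counts at P3, 2.71, 1.94 and 4.70 at P7, 19.6, 18.4 and 11.8 at P14, 29, 27.8 and 14.7 at P21 and 27.1, 20.8 and 29.2 in adults. At P7 it was near the detection limit, with 3, 2 and 5 reads, and the P3 mean was 16.8 times that of P7 (95% counting interval 9.16 to 35.1). Oas3 was as sparse at P7 (3, 3 and 9 reads) and its P3 mean was 18 times higher (10.9 to 32.2). Oas2 fell from 196 ± 87.7 to 12.45 ± 2.68 (log2 -3.80 ± 0.49, adjusted p = 0.000158) and Oas1a from 252 ± 86.0 to 47.13 ± 3.42 (SD, n = 3; log2 -2.34 ± 0.34, adjusted p = 0.000404). Near-identical neighbors, here Oas1b and Oas1g for Oas1a and Ifit3b for Ifit3, can share reads with these genes, so their values are uncertain to that degree.

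The Ifit genes, whose proteins bind foreign RNA, all fell from P3 to P7 and rose from P7 to adults. Ifit1 had 378, 525 and 1001 normalized counts at P3, 117, 131 and 125 at P7, 426, 437 and 379 at P14, 838, 1306 and 1018 at P21 and 1002, 1628 and 1507 in adults. Its P7 libraries were the lowest of all, the P14 libraries lay within the lower part of the P3 range, and each adult library exceeded every P3 library, replicate 1 only just. It was called lower at P7 than at P3 (log2 -2.23 ± 0.29, adjusted p = 0.00016), rose from P7 to adults (log2 3.43 ± 0.29, adjusted p = 1.86e-07) and was higher in adults than at P3 (log2 1.21 ± 0.29, adjusted p = 0.00202). Ifit3 had 817, 1190.1 and 1998 normalized counts at P3, 280.2, 312 and 227 at P7, 423, 349 and 530.1 at P14, 894, 1032 and 556 at P21 and 1201, 1777 and 1712 in adults. The adult libraries lay within the P3 range, and the gene was not called between adult and P3 (log2 0.30 ± 0.30, adjusted p = 0.389), whereas the P7 fall (log2 -2.20 ± 0.30, adjusted p = 0.000268) and the rise from P7 to adults (log2 2.5 ± 0.30, adjusted p = 7e-06) were called. Ifit2 had 759, 1001 and 1074 normalized counts at P3, 647, 663 and 580.4 at P7, 980.1, 1023 and 886 at P14, 1219, 1077 and 1245 at P21 and 1202, 1349 and 1238 in adults. It moved less, with a called change of -0.57 ± 0.12 at P7 (adjusted p = 0.00358) and a rise of 1.0 ± 0.12 to adults (adjusted p = 5.29e-06), and its 3 adult libraries were above all P3 libraries.

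Other effectors act on protein synthesis, membranes and nucleotides. Eif2ak2 (PKR), a kinase that halts translation when it meets double-stranded RNA, had 1439, 1701 and 2208 normalized counts at P3, 833, 938 and 836 at P7, 582, 544 and 783 at P14, 776, 544 and 800.3 at P21 and 1098, 1101 and 1094 in adults. It fell at P7 (log2 -1.01 ± 0.18, adjusted p = 0.00122), was lowest on average at P14, and in adults was nearly the same in all 3 libraries, below every P3 library. Bst2 (tetherin), which holds budding virus at the cell surface, fell from 1996 ± 970 to 225 ± 23.1 (log2 -3.0 ± 0.36, adjusted p = 0.000106), and Ifitm3, which blocks viral entry, from 3013 ± 762 to 1458 ± 67.1 (log2 -1.02 ± 0.25, adjusted p = 0.00964; SD, n = 3). Rsad2 (viperin), which makes a nucleotide that stops RNA synthesis, fell (log2 -2.26 ± 0.34, adjusted p = 0.000423). Cmpk2, a mitochondrial nucleotide kinase and the nearest neighbor of Rsad2, did not pass the test (log2 -0.08 ± 0.14, adjusted p = 0.696). The GTPases Mx1 and Mx2 fell (log2 -2.28 ± 0.47 and -1.0 ± 0.28), and so did Samd9l, which restrains growth and viral translation (log2 -0.84 ± 0.15).

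Ifi44 had the smallest adjusted p of the 40 genes in the joint test. It had 874, 1112 and 1613 normalized counts at P3, 39.8, 67.8 and 57.3 at P7, 91, 77.5 and 83.7 at P14, 130.1, 106 and 63.6 at P21 and 83.2, 141 and 105 in adults. Every P3 library was over 6-fold above every later one. At P7 it fell (log2 -4.41 ± 0.30, adjusted p = 1.89e-06) and in adults was 9.14% of its P3 mean. Rtp4, a chaperone of membrane receptors, had 484, 944 and 1129 normalized counts at P3, 91.3, 105 and 79.8 at P7, 148, 139.8 and 134 at P14, 253, 249.8 and 123 at P21 and 159, 337 and 243 in adults. The P7 libraries were the lowest of all, and the fall at P7 (log2 -3.12 ± 0.35, adjusted p = 5.58e-05) was followed by a rise to adults (log2 1.36 ± 0.35, adjusted p = 0.00331). Xaf1, an antagonist of an inhibitor of apoptosis, fell (log2 -2.04 ± 0.25, adjusted p = 0.000115) and so did Ifi35 (log2 -0.56 ± 0.15, adjusted p = 0.0155), while Ifi27 was not called (log2 -0.44 ± 0.20, adjusted p = 0.122) and overlaps Ifi27l2a.

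The chemokines and serpins, as a group, had the lowest median level relative to P3 of the 6 roles, both at P7 and in adults, and none of them rose from P7 to adults. At the median these 4 genes stood at 5.0% of their P3 mean at P7 and at 1.67% in adults. Cxcl9 and Cxcl10 attract T cells through Cxcr3, and Serpina3f and Serpina3g belong to a family of protease inhibitors that is expanded in mice. Serpina3f had 494, 1281 and 1140.4 normalized counts at P3, 10.8, 10.7 and 15 at P7, 8.27, 0 and 0 at P14, 18.7, 1.03 and 3.91 at P21 and 2.08, 1.09 and 0 in adults. The 3 P3 libraries stood far above all others, it fell at P7 (log2 -6.11 ± 0.91, adjusted p = 0.000431), and in adults 2, 1 and 0 reads were left, so the P3 mean was 918 times the adult mean with a 95% counting interval of 314 to 4453. Serpina3g had 804, 1957 and 1858 normalized counts at P3, 146, 131 and 167 at P7, 81.7, 41.8 and 66.5 at P14, 61.8, 19.5 and 21.5 at P21 and 54.1, 8.75 and 14.6 in adults. It fell from P3 to P7 (log2 -3.27 ± 0.59, adjusted p = 0.00149) and again from P7 to adults (log2 -2.87 ± 0.59, adjusted p = 0.000687), with no overlap at either step. Without adult replicate 1, its fitted fold against P3 and against P7 grew by over 1.5 times. Serpina3f lies wholly inside the interval of Serpina3g on the same strand, so reads can be split between them. Cxcl10 had 75.9, 272 and 238 normalized counts at P3, 18.1, 11.6 and 21.6 at P7, 14.5, 12.2 and 7.51 at P14, 10.3, 19.5 and 8.81 at P21 and 31.2, 17.5 and 36.5 in adults. Its P3 libraries were above all others, it fell at P7 (log2 -3.28 ± 0.49, adjusted p = 0.000446) and it was not called from P7 to adults (log2 0.68 ± 0.49, adjusted p = 0.235). Cxcl9 fell from 308 ± 212 to 2.24 ± 3.13 (SD, n = 3), on 1, 6 and 0 reads at P7. The P3 mean of Cxcl9 was 138 times that of P7 (66.8 to 342), and leaving out P3 replicate 1, P7 replicate 5 or P7 replicate 6 moved its fitted fold by over 1.5 times without ending the call.

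**Figure D2:**
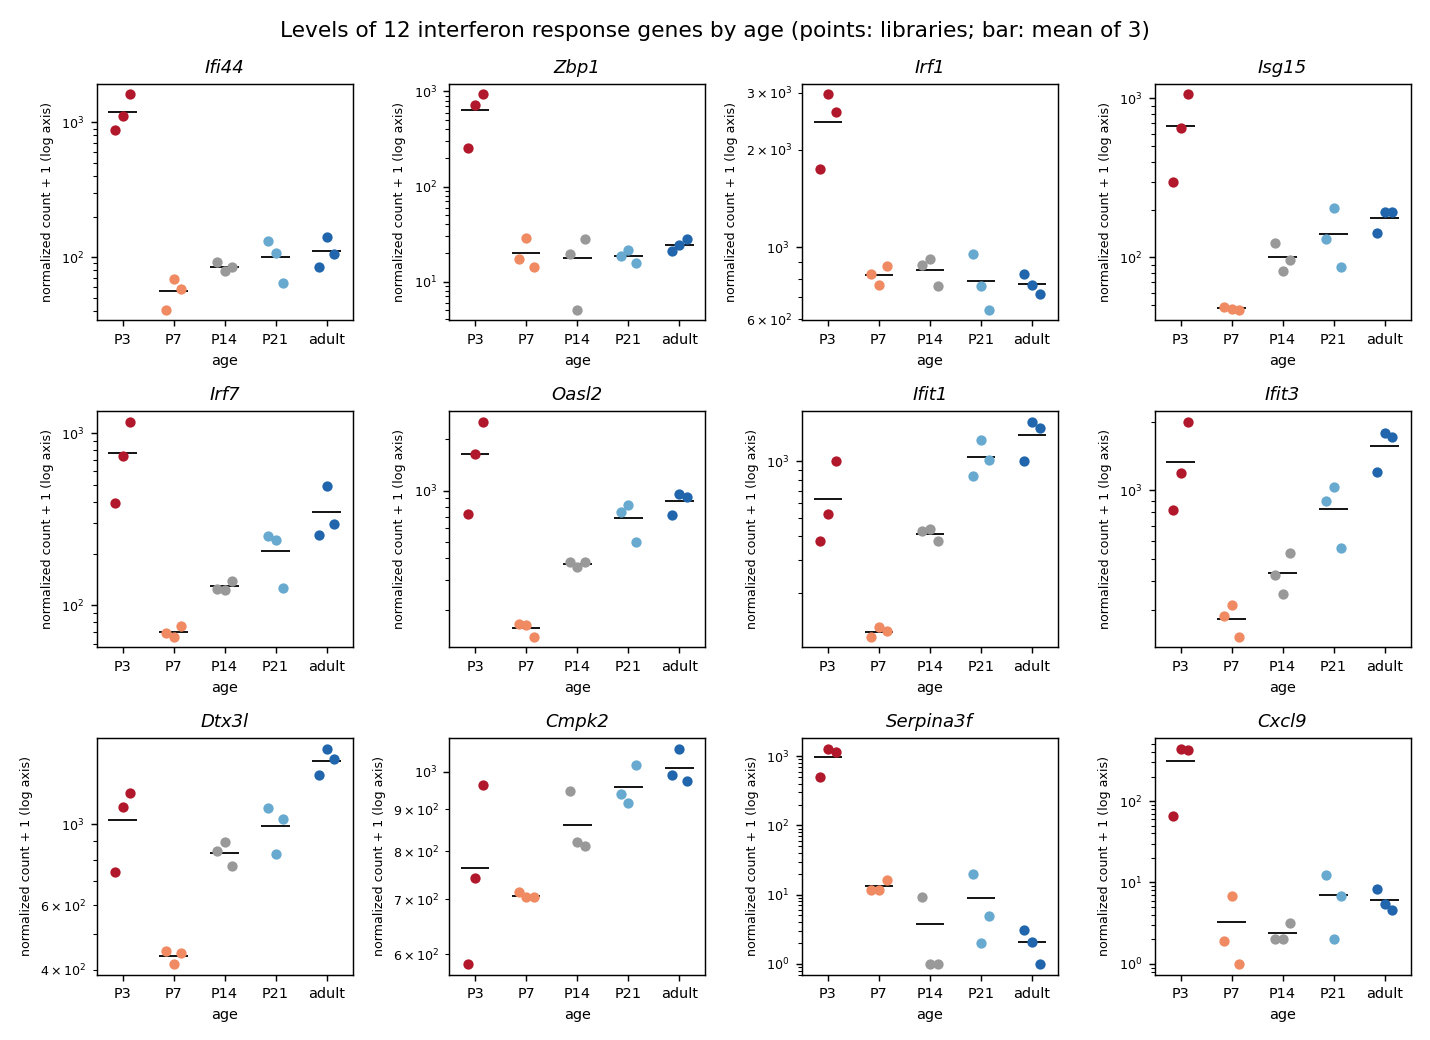
Normalized count plus 1 on a log axis for 12 of the genes, by age, with 1 point per library and a bar at the mean of 3. Irf1, Zbp1 and Ifi44 stay far below P3 after P7, Isg15, Irf7 and Oasl2 recover in part, Ifit1, Ifit3 and Dtx3l come back to P3 levels or above, Cmpk2 is not called between P3 and P7, and Serpina3f and Cxcl9 end near the detection limit.

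After P7 few of the 40 genes were called at any single step between neighboring ages. From P7 to P14, 9 rose (Isg15, Ifit1, Ifit2, Stat2, Usp18, Oas2, Oasl1, Oasl2 and Dtx3l), where 24.3% of all genes tested rose, and 2 fell (Eif2ak2 and Serpina3f), where 23.8% fell. Ifit1, Ifit2, Oasl1, Oasl2 and Dtx3l kept this call under every alternative tried. These 11 calls, where 48.1% of all genes were called, became 17 without P3 replicate 1, 6 without P7 replicate 4, 7 without either P7 replicate 5 or P14 replicate 1 and 5 without P7 replicate 6, and were 24 when only the P7 and P14 libraries were fitted. From P14 to P21 only Ifit1 rose (log2 1.33 ± 0.29, adjusted p = 0.0127), where 3.29% of all genes rose, and 0 fell, where 6% fell. The call of Ifit1 was lost without P14 replicate 3 (adjusted p = 0.0554). The number of calls at this step was 3 without P3 replicate 1, 2 without P3 replicate 3, 2 without P7 replicate 6 and 4 without P21 replicate 3. From P21 to adult 5 rose (Ifit3, Stat2, Mx1, Dtx3l and Eif2ak2), where 25.4% of all genes rose, and 0 fell, where 24.1% fell. The 5 rises became 9 rises and 1 fall (Ifi35) without P3 replicate 1, 3 rises and 3 falls (Ifi35, Ifi27 and Ifitm3) without P21 replicate 3 and 3 rises without adult replicate 3, and 0 of the 40 genes were called without the 4 libraries low in Eif2s3y, which leaves P21 with 1 library. At the same step 6 of 6 erythroid, 6 of 7 neutrophil, 6 of 7 B cell and 10 of 14 macrophage markers fell, and their part in these 5 rises was not tested.

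Over the whole interval from P7 to adults, 26 of the 40 genes rose, where 33.5% of all genes tested rose, and 2 fell (Serpina3f and Serpina3g), where 34.1% fell. The rise was at least 2-fold in 16, and in 30 every adult library was above every P7 library, beside 38.6% of all genes tested. Ifit1 rose most (3.43 ± 0.29), followed by Oasl1 (2.74 ± 0.37), Ifit3 (2.5 ± 0.30), Oasl2 (2.47 ± 0.33), Irf7 (2.25 ± 0.36) and Usp18 (2.15 ± 0.37). The 12 genes not called were Irf1, Irf8, Oas1a, Oas3, Zbp1, Trim25, Eif2ak2, Samd9l, Cxcl9, Cxcl10, Ifi35 and Ifih1. This comparison uses the same P7 libraries as that of P7 with P3, so low values in them enter both. Calls lost when 1 library was left out were those of Ifi44 (without P7 replicate 4 or adult replicate 2), Bst2 (without adult replicate 2), Serpina3f (without adult replicate 3), Ifitm3 (without any P7 replicate or adult replicates 2 or 3) and Irf9.

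Adults did not return to the P3 state as a group. Against P3, 26 of the 40 genes were lower in adults by the test, where 34.3% of all genes tested fell, 4 were higher (Ifit1, Ifit2, Dtx3l and Cmpk2), where 34.4% rose, and 10 were not called. The median change was -0.93 on the log2 scale, beside -0.01 over all genes tested. Sorted by these calls alone, most genes were in 1 of 3 groups, and the threshold can part genes with like values. Oasl2 (adult mean 52.9% of P3, adjusted p = 0.0589) was not called between adult and P3, and Oasl1 (48.9%, adjusted p = 0.0329) was. In Oas1a, Eif2ak2 and Samd9l every adult library was above every P7 library, though no rise was called. In 14 (Ifi44, Isg15, Irf7, Irf9, Usp18, Rsad2, Oas2, Oasl1, Ddx58, Bst2, Rtp4, Xaf1, Parp9 and Parp14) the level fell to P7, rose to adults and remained below P3. In 10 (Irf1, Irf8, Oas1a, Oas3, Zbp1, Trim25, Eif2ak2, Samd9l, Cxcl9 and Cxcl10) it fell to P7, was not called from P7 to adults, and was lower in adults than at P3. In 7 (Ifit3, Stat2, Mx1, Mx2, Oasl2, Dhx58 and Ifitm3) it fell, rose, and was not called between adult and P3. The mean was highest at P3 in 33 genes, in adults in 5 and at P21 in 2. Over all genes tested the shares were 27.03%, 30.93% and 16.40% in the same order. The mean was lowest at P7 in 29 genes, at P14 in 8 and in adults in 3, beside 19.14%, 9.60% and 29.91%. Calls between adult and P3 lost without 1 library were those of Irf7 (P3 replicate 3, adult replicate 1 or 3), Usp18 and Rsad2 (P3 replicate 2 or 3, adult replicate 1), Oasl1 (P3 replicate 2 or 3, adult replicate 1 or 2), Parp9 (P3 replicate 3) and Cmpk2 (P3 replicate 1). The calls of Irf7 and Usp18 were also lost without the 4 libraries low in Eif2s3y.

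**Figure D3:**
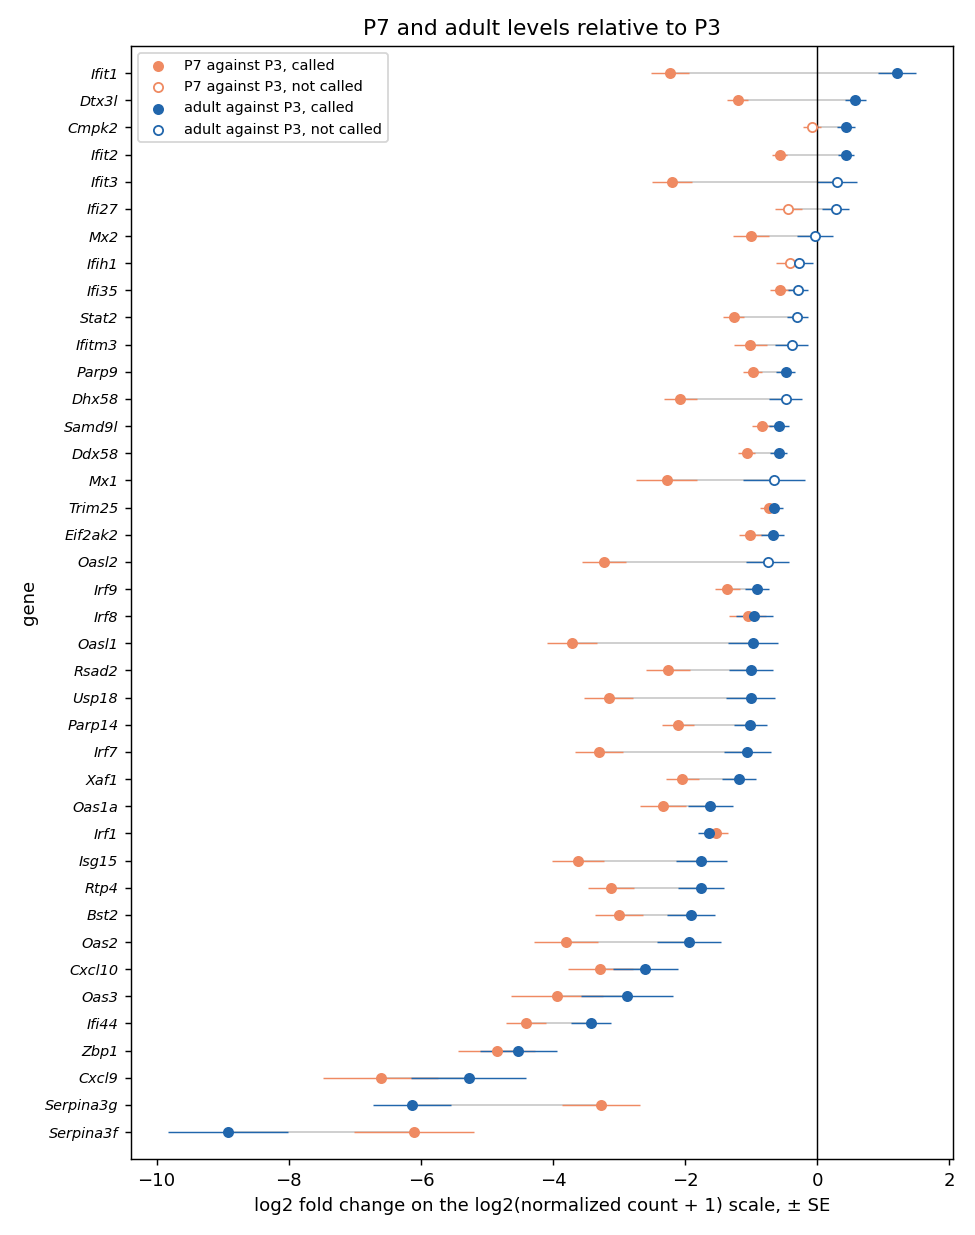
Fold change of each gene at P7 (orange) and in adults (blue) relative to P3, as log2 with bars of 1 SE from limma, ordered by the adult value. Filled points were called and open points were not, and the vertical line at 0 is the P3 level. Adult points lie to the right of P7 points except in Irf1, Serpina3f and Serpina3g, and 4 adult points to the right of 0 are filled.

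The P3 libraries differed from one another in these genes. Replicate 1 was the lowest of the 3 in 40 of 40 genes, as it was in 38.6% of all genes tested. The highest was replicate 3 in 32 and replicate 2 in 8, beside 35.5% and 29.0% of all genes tested. At the median, replicate 2 was 1.56 times and replicate 3 was 2.03 times replicate 1, beside 1.0 and 1.01 times over all genes tested. The ratio of replicate 3 to replicate 1 ran from 1.31 to 6.59 over the 40 genes. The same medians were 1.72 and 1.52 for 6 osteoclast markers, the first of them above that of the 40 genes, and 1.5 and 1.74 for the 6 T and NK cell markers that passed the filter. For 14 macrophage markers they were 1.39 and 1.32, for 7 Schwann cell markers 1.5 and 1.37, for 7 neuronal markers 0.803 and 1.23 and for 7 endothelial markers 1.0 and 1.1. The part of these cells in the spread of the interferon genes was not tested. Without P3 replicate 1, 38 genes fell from P3 to P7, and without P3 replicate 2 or 3 it was 35 in each case.

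The rest of the pathway was examined in lists of genes by role. Of 21 interferon ligands, Ifnb1 and the Ifna genes among them, 0 were found by symbol in the table, so their levels could not be read. Of the receptor chains and kinases, Tyk2 fell slightly (log2 -0.45 ± 0.11, adjusted p = 0.0114) from P3 to P7 and the 8 others listed here were not called. The receptor chain Ifnar1 had 4207, 4365 and 4608 at P3 and 3823, 3968 and 4216 at P7 (log2 -0.13 ± 0.10, adjusted p = 0.353), and Ifnar2 had 1749, 1889 and 1824 and 1896, 1752 and 1934 (log2 0.03 ± 0.08, adjusted p = 0.815). Neither chain was called at P7, nor was Jak1 (log2 -0.01 ± 0.07, adjusted p = 0.915), Jak2 (log2 0.22 ± 0.10, adjusted p = 0.122), Ifngr1 (log2 0.11 ± 0.09, adjusted p = 0.389), Ifngr2 (log2 -0.14 ± 0.07, adjusted p = 0.165), Ifnlr1 (log2 0.32 ± 0.22, adjusted p = 0.296) or Il10rb (log2 0.02 ± 0.08, adjusted p = 0.901).

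Upstream of interferon production, 15 genes were listed, such as the Toll-like receptors and their adaptors. From P3 to P7, 3 of them fell, where 12.8% of all genes tested fell, and 12 were not called. The 3 were Mb21d1 (cGAS), the sensor of cytoplasmic DNA (log2 -1.03 ± 0.21, adjusted p = 0.00331), Unc93b1, which carries Toll-like receptors to endosomes (log2 -0.55 ± 0.15, adjusted p = 0.0155), and the adaptor Myd88 (log2 -0.39 ± 0.12, adjusted p = 0.0296). From P7 to adults 9 of the 15 fell and 2 rose, where 34.1% of all genes tested fell and 33.5% rose. At that step 26 of the 40 interferon genes rose. Of 12 negative regulators 5 fell from P3 to P7 and 0 rose, led by Samhd1, which breaks down nucleotides (log2 -1.40 ± 0.14, adjusted p = 2.4e-05), and Adar, which edits double-stranded RNA (log2 -0.79 ± 0.14, adjusted p = 0.00119). Adar rose from P7 to adults (log2 1.86 ± 0.14, adjusted p = 5.8e-08). At that step 4 of the 12 rose and 5 fell, counts near the shares of all genes tested.

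Another 36 interferon-stimulated genes outside the 40 were listed as well, of which 35 passed the filter and were tested. From P3 to P7, 29 of them fell, 1 rose and 5 were not called, beside the 12.8% and 15.4% of all genes tested. Those with the smallest adjusted p were Ddx60, a helper of RIG-I (log2 -2.81 ± 0.21, adjusted p = 2.78e-06), Nlrc5, the activator of MHC class I genes (log2 -5.76 ± 0.45, adjusted p = 3.61e-06), Ifi203 (log2 -1.64 ± 0.13, adjusted p = 3.78e-06) and the GTPase Ifi47 (log2 -3.42 ± 0.33, adjusted p = 1.81e-05). The 1 that rose was Pnpt1, a mitochondrial RNA-degrading enzyme (log2 0.26 ± 0.07, adjusted p = 0.0167). From P7 to adults 16 of the 35 rose, where 33.5% of all genes tested rose, and 5 fell, where 34.1% fell. Sp100 (log2 1.96 ± 0.18, adjusted p = 5.45e-07), Znfx1 (log2 1.74 ± 0.16, adjusted p = 5.61e-07), Cd274 (log2 2.64 ± 0.27, adjusted p = 1.41e-06) and Ifit3b (log2 2.88 ± 0.36, adjusted p = 1.06e-05) had the smallest adjusted p.

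Markers of other cells were measured beside the interferon genes. Of 14 macrophage markers 9 fell from P3 to P7 and 0 rose, beside 12.8% and 15.4% of all genes tested. Their median log2 change was -0.69, beside the -2.15 of the 40 genes. Their summed level ran from 27471 to 36751 normalized counts at P3, from 19088 to 21543 at P7, from 12462 to 18561 at P14, from 9143 to 11693 at P21 and from 6500 to 8773 in adults. From P7 to adults 13 of the 14 fell and 0 rose, where 34.1% of all genes tested fell and 33.5% rose, while 26 of the 40 interferon genes rose. None of the 14 was at or under the detection limit at any age, and their part in the fall from P3 to P7 was not tested. The T cell markers Cd3d, Cd3e and Cd3g had at most 9, 3 and 2 reads in any P3 library, and 13 T and NK cell markers summed to between 345 and 489 normalized counts at P3 and between 197 and 284 at P7. Most of that sum was Cd4, which alone had 220.0, 307 and 333 at P3 and 221, 161 and 214 at P7. Of the 6 T and NK cell markers that passed the filter, 2 fell from P3 to P7, 0 rose and 4 were not called. Gzma and Prf1 passed the filter mainly through P3. Gzma had 17.7, 45.6 and 56.5 normalized counts at P3 and 5.42, 0 and 2.82 at P7. Prf1 had 2.53, 11.4 and 11.3 at P3 and 0.904, 0 and 0.939 at P7. The count of falls in this list is therefore not read as a change of these cells, and no median is given. The part of T and NK cells in the fall of the interferon genes was not tested. Of 6 plasmacytoid dendritic cell markers, cells known for making interferon alpha, 4 were tested, and 1 rose and 0 fell from P3 to P7. Among these 4, Pacsin1 had 1059, 1123 and 1430 normalized counts at P3 and Tcf4 5341, 5447 and 5643. Siglech had only 47.2, 35.1 and 29.2 and Ccr9 17.7, 11.4 and 10.4. Whether Pacsin1 and Tcf4 mark such cells here was not tested. Of 6 osteoclast markers 3 fell from P3 to P7 with a median of -1.78. Their sum ran from 86035 to 150484 normalized counts at P3, from 34229 to 52617 at P7 and from 604 to 827 in adults. The part of osteoclasts in the fall of the interferon genes was not tested. From P3 to P7, 0 of 6 erythroid markers were called and 1 of 7 B cell markers rose. The medians of these 2 lists were -0.10 and -0.11. Of 7 neutrophil markers 0 were called, but their median was -1.59. Their sum ran from 2023 to 4775 normalized counts at P3 and from 607 to 1940 at P7. The 7 endothelial markers summed to between 12960 and 14371 at P3, between 9710 and 10764 at P7 and between 11230 and 12869 in adults. The 40 interferon genes summed to between 28418 and 53382 at P3, between 15130 and 15824 at P7, between 18589 and 20678 at P14, between 21483 and 29501 at P21 and between 24831 and 29910 in adults, so the P7 libraries differed least.

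**Figure D4:**
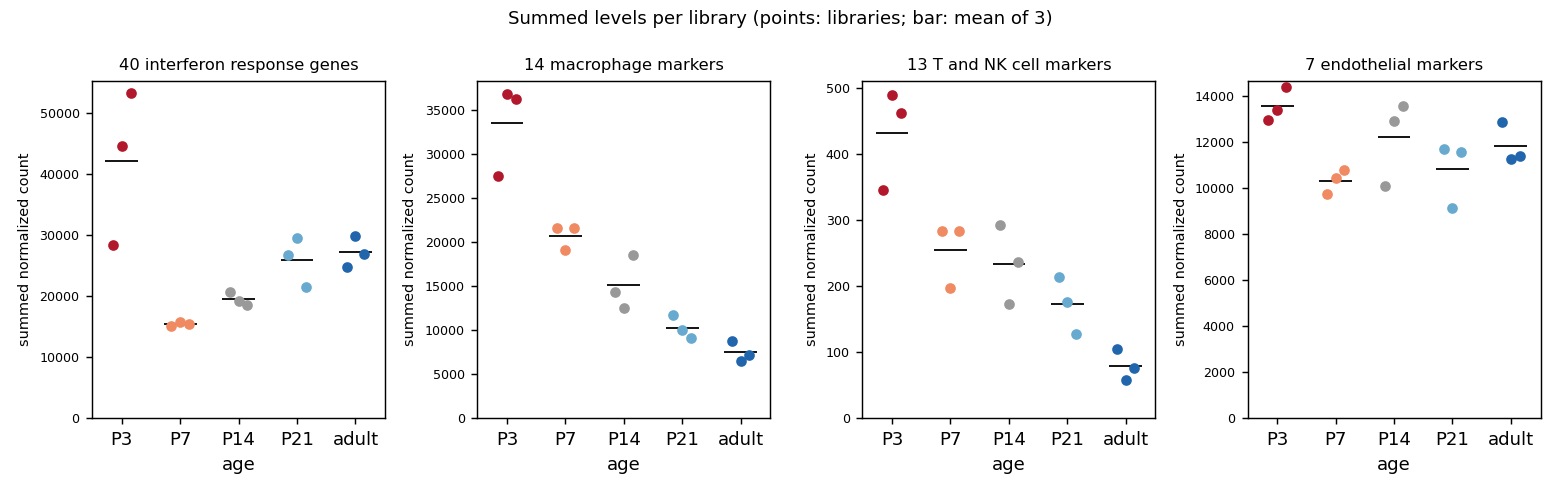
Summed normalized counts per library, by age, of the 40 interferon response genes and of markers of macrophages, of T and NK cells and of endothelial cells, with 1 point per library, a bar at the mean of 3 and each axis starting at 0. The interferon genes are lowest at P7 and higher at each later age on average, whereas the macrophage sum is lower at each age than at the one before. The T and NK cell sum at P3 and P7 is mostly Cd4.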

How the data were processed

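RNA of the mouse auditory nerve was measured in 15 libraries, 3 at each of 5 ages. Per the labels, RNA was extracted with a miRNeasy kit, degraded samples were left out, and TruSeq libraries were made. The submitters' processing notes name Partek, TopHat2, DESeq2 and build mm10. The annotation, the counting settings and the use of strand were not given in the sources used here.

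The signal the authors deposited is a read count scaled by the size factor of its library: 99.939% of positive values are whole multiples of the value of 1 read, within a tolerance of 0.1, so whole reads were recovered from it. No gene had under 10 reads in all libraries together, and 0 mitochondrial genes were listed.

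Log2(value + 1) of genes that reached 10 in 3 or more libraries was fitted with limma 3.58.1 (R 4.3.3; trend, robust), all 15 libraries in 1 fit without covariates. P-values are two-sided and Benjamini-Hochberg adjusted over the 16723 genes tested, with a threshold of 0.05. Alternatives were quantile normalization, no filter or a filter of 50, pseudocounts of 0.1 and 10, edgeR 4.0.16 (quasi-likelihood, TMM) on the recovered reads, only both ages in the fit, the 4 libraries low in Eif2s3y left out, the replicate number as a block, and each library left out in turn. Counting intervals are exact and cover counting error only. The code was tested on simulated data.

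The 40 genes and all lists were chosen with earlier results of these data known. Values in every library are given for the 20 genes with the smallest adjusted p in the joint test and for Ifih1. Up to 4 genes with the smallest adjusted p are named from each other list, and all receptors and kinases. The result of 1 listed gene is not reported here.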

Additional observations from a re-analysis of the deposited data

How the results depend on the processing

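Of the 112 calls of the 40 genes over the 6 comparisons of ages, 86 were kept under every alternative tried and 0 reversed. These were 34 of 37 for P7 against P3, 24 of 30 for adult against P3, 23 of 28 for adult against P7, 5 of 11 for P14 against P7, 0 of 1 for P21 against P14 and 0 of 5 for adult against P21. The number of the 40 genes called from P7 to P14 was 24 with only both ages in the fit and 7 without the libraries low in Eif2s3y. From P14 to P21 it was 2 with edgeR and 0 without the libraries low in Eif2s3y, and from P21 to adult 0 without them. Over all genes, 147 were called from P14 to P21 with only both ages in the fit, 760 without the libraries low in Eif2s3y and 650 with the replicate block, in place of 1553. From P21 to adult 5321 were called with only both ages and 3989 without those libraries, in place of 8266. The cause was not tested, beyond the fewer libraries in these fits.

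With 1 library left out at a time, the 40 genes gave 35 to 38 calls for P7 against P3, 5 to 17 for P14 against P7, 0 to 4 for P21 against P14, 3 to 10 for adult against P21, 25 to 35 for adult against P3, 24 to 28 for adult against P7 and 38 to 40 in the joint test. All genes gave 3075 to 6352, 6738 to 9169, 632 to 1968, 6773 to 8515, 10603 to 12193, 10517 to 12062 and 13607 to 14460 in the same order. A pseudocount of 10 moved the fold of Oas2, Oas3, Oasl1, Cxcl9 and Serpina3f between P3 and P7 by over 1.5 times, since these had few reads at P7. Scaling moved the median of all genes by under 0.1 on the log2 scale in each comparison.

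The replicate numbers come from mice of different ages. Same-numbered libraries deviated together (r over 0.1) in 5 of 18 pairs, with r from -0.23 to 0.32. In pairs with different numbers r ran from -0.37 to 0.39. Whether the numbers stand for a shared batch cannot be told from these values. With the replicate block 1 of the 40 genes was called for P21 against P14, 4 for adult against P21 and 30 for adult against P3. No paired analysis was possible because the P7 libraries carry other numbers for the comparisons with P7.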

Other observations

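Several of the 40 genes are neighbors on a chromosome, and their changes from P3 to P7 are given side by side. The differences between neighbors were not tested, and Cmpk2 was not called. Rsad2 and Cmpk2 lie 12762 bases apart on opposite strands of chromosome 12 with no gene of the table between them, and their changes were -2.26 and -0.08 on the log2 scale. Ifit2 and Ifit3 lie 6994 bases apart on the same strand of chromosome 19, with -0.57 and -2.20. Mx1 and Mx2 lie 73174 bases apart on chromosome 16, with -2.28 and -1.0. Oas2 and Oas3, 3249 bases apart on chromosome 5, had -3.80 and -3.94, and Oasl1 and Oasl2, 10994 bases apart on the same chromosome, had -3.71 and -3.22. Cxcl9 and Cxcl10, 18559 bases apart there, had -6.61 and -3.28. Cxcl10 overlaps Art3 on the opposite strand. These positions are those of the deposited table on build mm10.

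The P21 libraries also differed in these genes. Replicate 3 was the lowest of the 3 in 27 of the 40 genes, beside 31.6% of all genes tested. The highest was replicate 1 in 21 and replicate 2 in 16, beside 26.4% and 41.8% of all genes tested, the second count near its share. Irf7 at P21 had 253, 239 and 125 normalized counts, Rtp4 253, 249.8 and 123, and Oasl2 751, 826 and 500. Replicates 1 and 2 are the P21 libraries low in Eif2s3y, and the part of that split in the spread was not tested.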
